A study of Mus musculus with 6 samples.

Results

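The Th17-only regions are stretches of mouse chromosomes 1 to 19 that were called open by ATAC-seq in both libraries of Th17 cells and in none of the 4 libraries of Th9 and Th2 cells. They were selected on peak calls alone. All peaks of the 6 deposited lists were merged where they met or shared bases, which left 225467 regions, and a region counted as called by a library with a peak on it (1 bp was enough). Of these regions, 3484 (1.55%) met the rule. They made up 4.64% of the 75164 regions called in both Th17 libraries, against 48805 regions called in all 6 libraries. The same rule applied to the other subsets gave 3051 Th9-only and 6561 Th2-only regions. Because the members were chosen by the peak calls of all 6 libraries, their presence in Th17 lists and absence from the other lists is not a finding, and every value below is a description with no test.

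The study asked whether closed chromatin limits where the transcription factor BATF can act in T helper subsets, and ATAC-seq, which inserts adapters into open DNA with the transposase Tn5, mapped accessibility in each subset. Naive CD4+ CD62L+ T cells from the spleen of wild-type C57BL6/J mice, 8 to 16 weeks old and of both sexes, were activated with anti-CD3 and anti-CD28 and cultured for 5 days. Th2 cultures received IL-4, IL-2 and anti-IFN-γ, Th9 cultures the same with TGF-β1, and Th17 cultures IL-6, TGF-β1, IL-23 and IL-1β with antibodies to IFN-γ, IL-4 and IL-2. Each subset had 2 libraries, numbered 1 and 3 in the labels, and whether they came from separate mice, or equal numbers share a mouse, was not stated in the sources used here. A differentiated culture is a mixture in which not every cell makes the subset's cytokine, so a peak weak in many cells and a peak strong in a few cells cannot be told apart. Th17 cells are CD4+ T helper cells known for IL-17A, IL-17F, IL-21 and IL-22, for surface receptors of IL-23 and IL-1, and for the chemokine receptor CCR6. IL-6 acts on them through STAT3, TGF-β through SMAD proteins, and AP-1 factors such as BATF with JUN bind many of their enhancers. Open regions away from promoters are often enhancers, and tend to differ more between cell types than promoters do.

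The promoters of the defining Th17 genes were checked against the labels. Of 5 listed genes (Il17a, Il17f, Il23r, Ccr6 and Il1r1), a peak overlapped the promoter window (the 1000 bp before a start and the 100 bp after it) in 4 and 5 cases in the Th17 libraries and in 1 or 2 cases in each Th9 or Th2 library. T cell promoters were called in 7 or 8 of 8 cases in every library. Promoters of 6 B cell genes were called in 1 to 3 cases and those of 6 myeloid genes in 1 to 3 cases. Cd79a, Ms4a1, Pax5, Csf1r, Lyz2 and Itgam were in no list. The B cell gene Ebf1 and the myeloid gene Cebpa were called in all 6 libraries, Ebf1 at percentiles from 90.5 to 95.9. For 8 genes of CD8 T and NK cells the counts were 3 or 4 in every library. Cd8a and Ncr1 were in no list, while Cd8b1 and Prf1 were called in all 6 libraries.

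The sequences of 8 members outside exons are given to show what such regions contain. They are the strongest non-exonic members nearest to Il17a, Il21, Ccr6, Il18r1, Smad3, Bhlhe40, Tle4 and Trib2, genes described in turn below, and the 8 were picked after their values were seen. Each is the central 300 bp on the plus strand of GRCm38.p6 (mm10), as given by RefSeq. Capitals mark matches, on either strand, to 4 short words: TGANTCA for AP-1 (N is any base), TGTGGTT for RUNX, AGGAAGT for ETS and ATCAAAG for TCF factors. A match is only a run of letters and does not show that a factor binds there.
Il17a (chr1:20685819-20686118): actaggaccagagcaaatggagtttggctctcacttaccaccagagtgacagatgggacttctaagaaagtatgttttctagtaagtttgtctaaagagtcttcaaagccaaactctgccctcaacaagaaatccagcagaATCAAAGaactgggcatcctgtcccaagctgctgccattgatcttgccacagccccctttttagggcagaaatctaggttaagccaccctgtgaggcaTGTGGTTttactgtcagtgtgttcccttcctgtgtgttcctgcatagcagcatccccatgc
Il21 (chr3:37209502-37209801): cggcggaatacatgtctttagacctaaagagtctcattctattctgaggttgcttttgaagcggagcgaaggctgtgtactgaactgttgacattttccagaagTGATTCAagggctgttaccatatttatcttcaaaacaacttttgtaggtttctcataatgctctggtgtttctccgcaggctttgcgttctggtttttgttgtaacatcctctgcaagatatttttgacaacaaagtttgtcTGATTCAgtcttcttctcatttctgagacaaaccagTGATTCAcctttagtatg
Ccr6 (chr17:8226797-8227096): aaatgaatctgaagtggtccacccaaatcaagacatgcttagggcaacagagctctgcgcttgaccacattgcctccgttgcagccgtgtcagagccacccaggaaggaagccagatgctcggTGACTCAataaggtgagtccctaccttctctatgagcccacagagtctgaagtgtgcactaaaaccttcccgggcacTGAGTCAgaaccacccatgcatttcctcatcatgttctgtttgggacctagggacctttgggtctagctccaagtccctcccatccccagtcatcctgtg
Il18r1 (chr1:40479521-40479820): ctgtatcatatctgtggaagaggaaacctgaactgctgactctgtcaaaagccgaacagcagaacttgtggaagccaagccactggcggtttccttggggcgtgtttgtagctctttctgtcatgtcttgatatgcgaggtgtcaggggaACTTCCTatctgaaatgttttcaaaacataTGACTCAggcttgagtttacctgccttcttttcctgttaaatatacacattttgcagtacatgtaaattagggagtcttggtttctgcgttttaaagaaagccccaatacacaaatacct
Smad3 (chr9:63740585-63740884): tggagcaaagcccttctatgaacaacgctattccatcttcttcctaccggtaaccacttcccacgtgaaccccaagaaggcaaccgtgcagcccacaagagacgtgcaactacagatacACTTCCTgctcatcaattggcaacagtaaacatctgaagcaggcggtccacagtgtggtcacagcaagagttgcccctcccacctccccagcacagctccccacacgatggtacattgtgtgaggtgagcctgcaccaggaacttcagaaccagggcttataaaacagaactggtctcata
Bhlhe40 (chr6:108524247-108524546): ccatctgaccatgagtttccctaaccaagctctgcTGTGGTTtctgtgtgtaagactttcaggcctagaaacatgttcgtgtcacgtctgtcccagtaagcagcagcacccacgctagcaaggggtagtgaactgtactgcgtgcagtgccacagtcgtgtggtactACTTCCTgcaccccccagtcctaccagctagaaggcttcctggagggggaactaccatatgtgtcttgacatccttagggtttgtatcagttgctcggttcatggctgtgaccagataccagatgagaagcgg
Tle4 (chr19:14588323-14588622): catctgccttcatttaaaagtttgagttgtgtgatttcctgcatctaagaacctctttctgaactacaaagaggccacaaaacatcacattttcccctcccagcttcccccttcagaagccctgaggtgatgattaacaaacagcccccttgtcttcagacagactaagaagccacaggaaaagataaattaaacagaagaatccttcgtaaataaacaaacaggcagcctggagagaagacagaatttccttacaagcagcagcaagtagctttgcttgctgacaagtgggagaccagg
Trib2 (chr12:15657218-15657517): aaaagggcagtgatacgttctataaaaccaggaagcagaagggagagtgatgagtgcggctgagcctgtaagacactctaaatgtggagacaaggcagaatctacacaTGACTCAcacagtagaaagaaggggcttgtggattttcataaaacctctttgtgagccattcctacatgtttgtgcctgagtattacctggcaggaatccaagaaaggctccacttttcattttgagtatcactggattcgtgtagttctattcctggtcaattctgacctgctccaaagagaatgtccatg
The Il21 member held 3 AP-1 words and the Ccr6 member 2. The Il18r1 member held an AP-1 and an ETS word, the Bhlhe40 member a RUNX and an ETS word, and the Il17a member a RUNX and a TCF word. The Tle4 member, at a fold enrichment above that of the Il17a member in both libraries, held none of the 4 words.

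Members were mostly weak peaks. Strength was read as the fold enrichment, the authors' linear ratio of fragment pile-up to a genome-wide background. In Th17 replicate 1 the fold of members ran from 1.76 to 7.35 with a median of 2.11, and in replicate 3 from 1.71 to 5.65 with a median of 2.01. The lowest values equal the lowest fold in each list, and the lower quartiles of members were 1.91 and 1.84. Ranked within its own list, a member reached a median mean percentile of 39.7 over the 2 Th17 lists, against 62.7 for all regions called in both. The median was 29.5 for Th9-only and 39.2 for Th2-only regions in their own lists. Only 9 members had a mean percentile of 90 or more, 1269 of 50 or more, 1179 from 25 to 50 and 1036 below 25. The Spearman correlation of the 2 libraries across members was 0.712, and 0.899 across all 75164 regions called in both. These are correlations across regions of 2 libraries, and regions are not independent replicates.

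**Figure D1:**
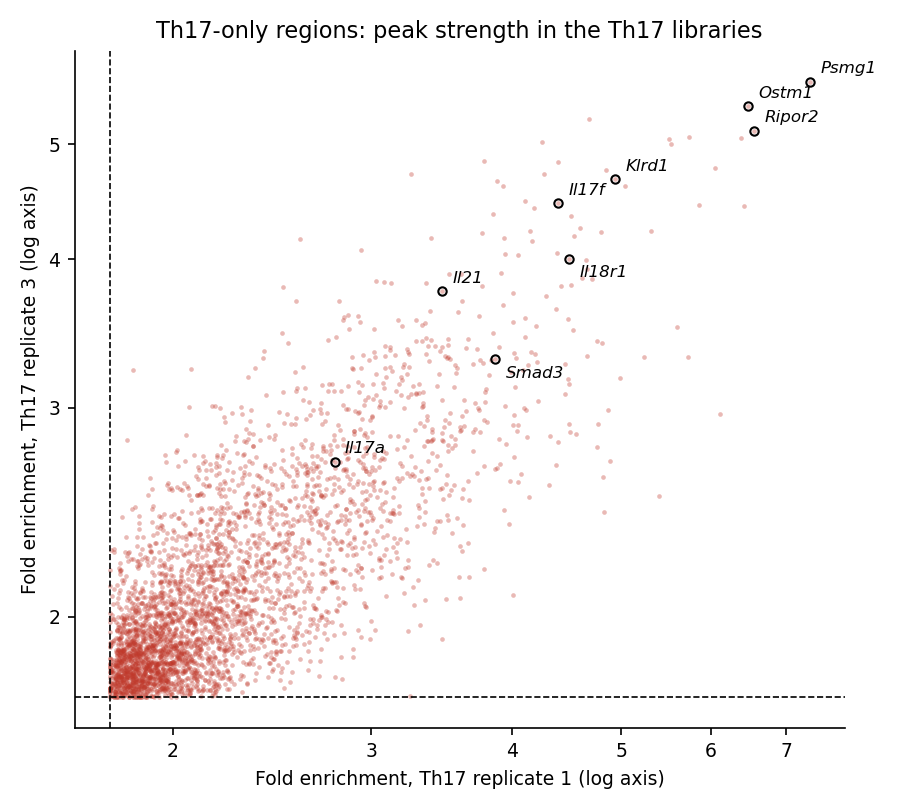
Fold enrichment of each of the 3484 Th17-only regions in Th17 replicate 1 (x axis) and replicate 3 (y axis), both on log axes. Dashed lines are the lowest fold in each list (1.76 and 1.71), open circles are members nearest to named genes, and most points crowd the lower left corner, with medians of 2.11 and 2.01.

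The lists differed in how weak a peak they held, which bears on what "only" means here. The lowest fold listed was 2.11 and 1.83 in Th9 replicates 1 and 3, and 1.81 and 1.73 in Th2 replicates 1 and 3. List lengths ran from 100317 peaks in Th17 replicate 3 to 142213 in Th9 replicate 1, and read depth is not given in the lists. A region as weak as a typical member in Th9 replicate 1 would not have been listed there. A fold of at least 2.2 in both Th17 libraries, above every list's lowest value, was reached by 958 members (27.5%), a fold of at least 4 in both by 30, and a −log10 q of at least 5 in both by 687. Around the rule's edge, 4795 regions were called in both Th17 libraries and exactly 1 other: 1285 with Th9 replicate 1, 471 with Th9 replicate 3, 1459 with Th2 replicate 1 and 1580 with Th2 replicate 3. Their median mean percentile in the Th17 lists was 33.1 when pooled, against the members' 39.7. It was 26.7 for those called with Th9 replicate 1 and 27.9 with Th2 replicate 1, and 40.9 with replicate 3 of either subset. The extra peak itself had a median percentile of 27.2 to 31.8 in its own list. On the other side, 13004 regions were called in Th17 replicate 1 alone, at a median percentile of 19.5, and 5711 in replicate 3 alone, at 15.2.

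Members lay away from promoters. Only 44 of 3484 (1.26%) overlapped a promoter window of a protein-coding gene, against 16.9% of all regions called in both Th17 libraries and 6.71% of all regions. The share was 1.93% of Th9-only and 1.30% of Th2-only regions, so a low promoter share was common to all 3 sets. Introns held 44.1% of members, exons 2.53%, and 52.1% were intergenic. Among all regions the intron share was 36.3% and the intergenic share 54.3%. The median member was 444 bp wide, with a range from 203 to 3487 bp. Its centre lay 51688.5 bp from the nearest protein-coding start, with an interquartile range from 18312 to 169668 bp. That was farther than Th9-only (37712 bp) and Th2-only regions (45947 bp), and near the median of all regions (53888 bp).

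**Figure D2:**
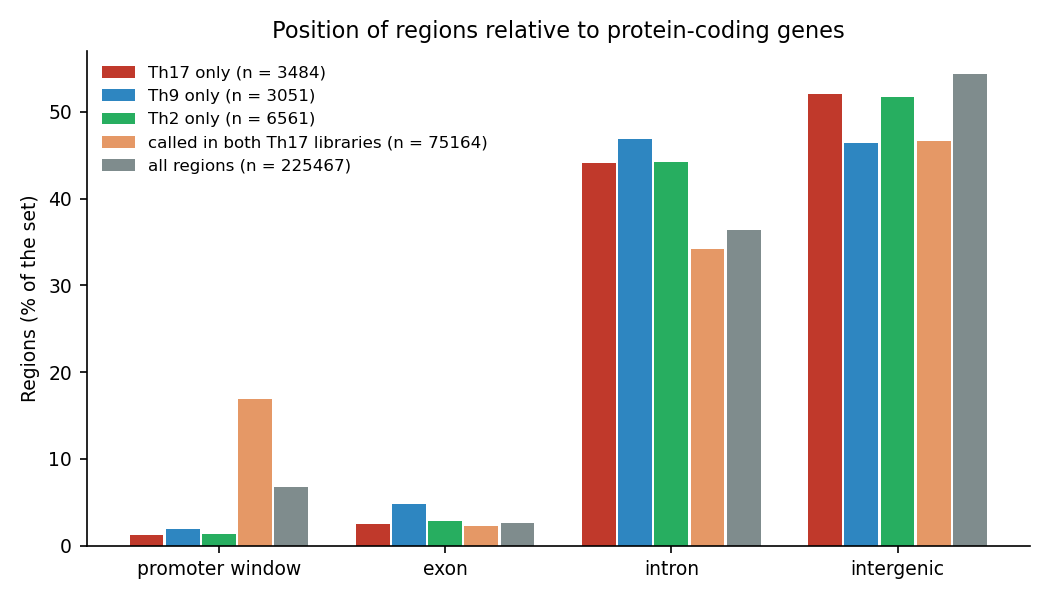
Share of regions (y axis, percent of each set) in promoter windows, exons, introns and between genes (x axis), for Th17-only, Th9-only and Th2-only regions, regions called in both Th17 libraries and all regions. Th17-only regions had 1.26% in promoter windows and 44.1% in introns, against 16.9% and 34.2% of regions called in both Th17 libraries.

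Strong and weak members differed in place. Of members at a mean percentile of 50 or more, 53.8% were intronic and the median distance to a start was 33316 bp. Below 25, 34.1% were intronic and the median distance was 117428 bp. Repeat-masked bases filled on average 17.7% of the central 300 bp of the stronger members and 42.5% of the weaker, against 32.7% over all regions. The same ordering of distance was seen for Th2-only regions, at 29834.5 and 88942.5 bp. Their intron shares (53.5% and 32.1%) and masked bases (20.1% and 36.6%) were ordered alike too. In Th9-only regions the stronger and weaker bands lay closer together, at 33194 and 40806 bp, with intron shares of 47.3% and 46.6% and masked bases of 26.2% and 23.0%. The stronger members were also nearer to shared open chromatin, with a median gap of 9185 bp to the nearest region called in all 6 libraries, against 22635.5 bp for the weaker. This gap was 9811.5 and 18949 bp in Th2-only regions, and 11653 and 13105 bp in Th9-only regions. Within 1000 bp of a region called in all 6 libraries lay 3.07% of all members, 4.85% of Th9-only and 4.44% of Th2-only regions. Over all regions the share was 3.22%, with the regions called in all 6 libraries themselves counted as outside. The mean G and C content was 46.7%, below the 48.8% of all regions.

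The ETS, RUNX and TCF words were more frequent in members than in all regions and in the Th9-only and Th2-only sets. The ETS word was found in the central 300 bp of 16.2% of members, against 9.05% of all regions, 9.57% of Th9-only and 9.83% of Th2-only regions. ETS1 and related factors are widely expressed in T cells. The RUNX word was found in 12.5% of members and 7.10% of all regions, with 9.28% of Th9-only and 7.91% of Th2-only regions. RUNX1 is known as a partner in Th17 differentiation. The TCF word, read by TCF-1 and LEF-1, was found in 7.92% of members and 4.28% of all regions, with 3.90% of Th9-only and 5.58% of Th2-only regions. The AP-1 word was found in 15.5% of members and 11.8% of all regions, but in 8.33% of Th9-only and 23.4% of Th2-only regions, so Th17-only regions lay between the other sets. The GATA word AGATAAG was less frequent in members (2.64%) than in all regions (3.56%) and Th2-only regions (6.83%). Its share in members was near that of Th9-only regions (2.79%) and of regions called in all 6 libraries (2.77%). GATA3 is the lineage factor of Th2 cells.

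Each of these 4 higher shares grew with peak strength. From members below the 25th percentile, through those from 25 to 50, to those of 50 and above, the ETS word went from 7.72% through 14.7% to 24.6%, and the RUNX word from 6.66% through 11.4% to 18.2%. The AP-1 word went from 9.17% through 14.6% to 21.6%, and the TCF word from 5.60% through 6.28% to 11.4%. Among Th2-only regions at or above the 50th percentile the ETS word stayed at 11.2% while the AP-1 word reached 34.9%. The RUNX word, however, was found in 16.4% of Th9-only regions of that strength, beside the 18.2% of Th17-only regions. At least 1 of the 4 words was present in 58.4% of the stronger members, 25.3% of the weaker and 27.9% of all regions, and in 51.5% of Th2-only regions at or above the 50th percentile. An ETS and a RUNX word together were present in 2.1% of members, 0.767% of all regions, 1.15% of Th9-only and 0.701% of Th2-only regions. Whether the words met more often than their single shares imply was not tested.

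**Figure D3:**
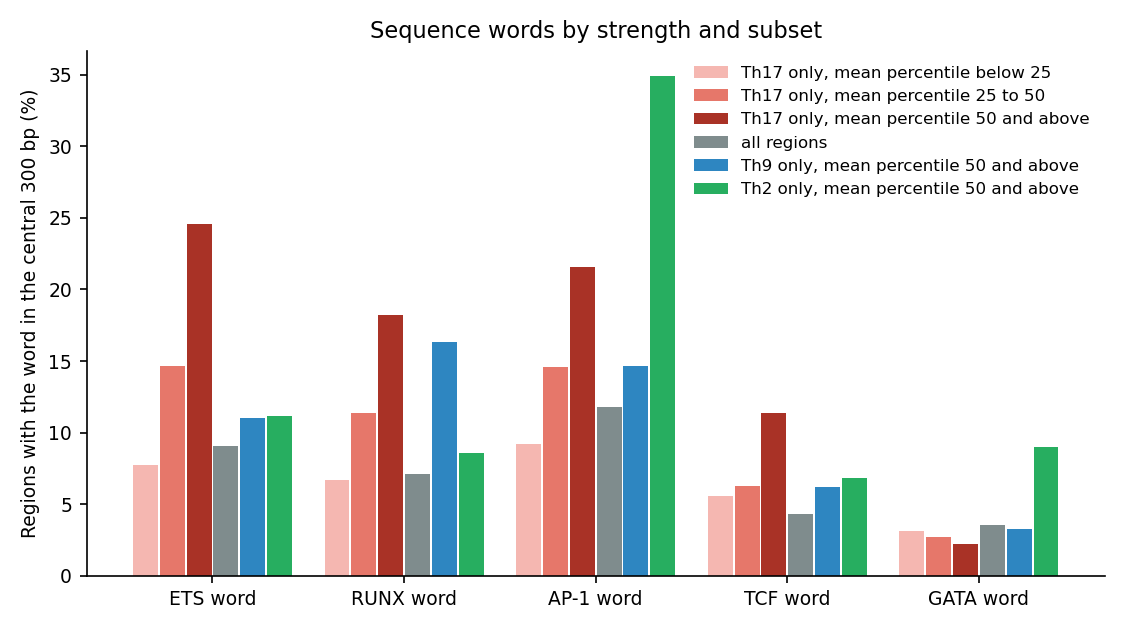
Share of regions (y axis, percent) with each word in the central 300 bp, for Th17-only regions in 3 bands of mean percentile, all regions, and Th9-only and Th2-only regions at or above the 50th percentile. The ETS share of Th17-only regions was 7.72%, 14.7% and 24.6% from weak to strong, against 9.05% of all regions, and the tallest bar is the AP-1 share of stronger Th2-only regions, 34.9%.

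The words lay at the middle of the regions. In stronger members the midpoint of an ETS word lay in the 50 bp just before the region's centre in 5.83% of regions. In the bin that starts 1000 bp before the centre it was 0.95%. For the AP-1 word the values were 4.89% and 1.42%, and for the RUNX word 4.57% in the 50 bp after the centre and 1.02% in the far bin. In windows of 300 bp moved 1000 bp to the side of all members, the shares fell back to 6.46% for ETS, 7.09% for RUNX, 8.15% for AP-1 and 6.0% for TCF. The GATA word was less common at the centre of members than beside it (2.64% and 4.19%). Th9-only regions showed the same (2.79% and 4.18%), and Th2-only regions the reverse (6.83% and 4.68%). The NFAT word TGGAAAA was also less common at the centre of members than beside it (6.20% and 10.2%).

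The other words reported here had like shares in members and all regions, or were rare. The STAT word with TTC and GAA 3 bases apart was found in 8.84% of members and 8.60% of all regions, though in 29.4% of Th9-only regions at or above the 50th percentile. With a gap of 4 bases it was found in 6.0% of members and 6.55% of all regions, and in 8.78% of the windows beside members. The share of members and of all regions was 6.20% and 5.78% for NFAT (TGGAAAA), 4.02% and 3.21% for IRF (GAAA repeated after 2 bases), and 3.62% and 3.29% for CTCF (CCA, AG and GGC, each 2 bases apart). It was 1.09% and 1.08% for NF-kB (GGGA and TTCC 2 bases apart), 0.861% and 1.06% for KLF (GGGCGTGG), 0.258% and 0.287% for the SMAD palindrome (GTCTAGAC), 0.144% and 0.300% for CRE (TGACGTCA), and 0.172% and 0.289% for a BATF-IRF composite that holds an AP-1 word.

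Genes of the Th17 programme had members more often than the background. A protein-coding gene counted when its start was the nearest to a member within 200 kb, which held for 2082 of 20807 genes (10.0%). Of 26 cytokine, receptor and regulator genes of Th17 cells, 13 had a member, 24 members in all. Those members were 10.6% of the regions called in both Th17 libraries nearest to the list's genes, against 4.29% over all protein-coding genes. The list was chosen with earlier results of these data known.

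Il17a and Il17f, the neighbouring genes for the signature cytokines on chromosome 1, had 2 members each. Upstream of Il17a, the member at chr1:20685767-20686171, 44936 bp before the start, had folds of 2.78 in replicate 1 and 2.70 in replicate 3. A weaker one at chr1:20700158-20700456, 30598 bp before the start, had 2.01 and 2.13. The Il17f promoter member at chr1:20784032-20784638, centred 65 bp before the start, was the strongest of the 4, with folds of 4.39 and 4.46. The other Il17f member, 8805 bp downstream of the start, was near the floor at 1.90 and 1.78. The Il17a promoter region itself was not a member: its folds were 3.60 and 2.75 in the Th17 libraries, and Th2 replicate 3 also called it, at 2.1. Other parts of the locus were open in the other subsets as well. Of the 10 regions called in both Th17 libraries nearest to Il17a, 4 also had a peak in each of the 4 Th9 and Th2 libraries and 4 in 1 to 3 of them. Of the 5 nearest to Il17f, 3 had a peak in all 4. The strongest of these, 13190 bp downstream of the Il17a start, had folds of 20.3 and 13.9 in the Th17 libraries and from 8.35 to 11.0 in the others.

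Il21, the gene of a cytokine that acts back on Th17 cells, had a member 22913 bp downstream of its start, past the gene, with folds of 3.47 and 3.76. Its promoter region was called in all 6 libraries. Ccl20, the ligand of CCR6, had a weak member 21476 bp downstream, with folds of 1.85 and 2.1. Ccr6 had a member 9265 bp upstream with folds of 3.43 and 2.22. Its merged promoter region was called in all 6 libraries. There the folds were 2.55 and 2.17 in Th17, 3.32 and 3.60 in Th9, and 2.88 and 2.58 in Th2 libraries. Within that region, a peak overlapped the narrower promoter window in both Th9 libraries, Th2 replicate 1 and Th17 replicate 3. At Il23r, the receptor chain specific to IL-23, the promoter itself was a member, with unequal folds of 1.84 and 2.47.

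Receptor genes for IL-1, IL-18, IL-23 and IL-12 also had members. Of 10 genes for these receptor chains, 5 had a member, against the background of 10.0%. Their 6 members, with that of Il23r above, were 13.3% of the 45 regions called in both Th17 libraries nearest to these genes. Over all protein-coding genes that share was 4.29%. At Il1r1, the signalling IL-1 receptor, members 34814 and 7741 bp upstream had folds of 3.19 and 2.16, and of 2.07 and 2.06. The neighbouring Il18r1 had a stronger member in an intron, 13665 bp downstream of its start, with folds of 4.49 and 4.01. A further member, at chr6:67424924-67425241, lay within an intron of Il23r but nearer to the start of its neighbour Il12rb2, 48895 bp away, and was counted under Il12rb2, with folds of 3.30 and 2.15. At Il1rap, the shared accessory chain, the folds were 2.15 and 1.76.

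Transcription factors of the Th17 list included Bhlhe40, Rora, Runx1, Maf and Ahr. Bhlhe40 had 5 members, 87808 to 192443 bp upstream of its start, with folds from 1.95 to 2.77 and 4 of them with at least 1 of the 4 words. The 4 farthest lay in introns of another gene. Rora had 4 members in introns with folds from 1.72 to 2.34, of which a pair lay 8252 and 10492 bp downstream of a start. Runx1 had 2 intronic members at 2.0 and 1.74, and at 1.76 and 2.19. The Maf member had folds of 2.05 and 1.90 and the Ahr member 2.41 and 2.2. None of these regulators had a member that reached a fold of 3 in either library. Sgk1, a salt-responsive kinase, had an intronic member with folds of 2.78 and 2.56.

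Of 20 TGF-β genes, 10 had a member. Their 18 members were 8.22% of the 219 regions called in both Th17 libraries nearest to these genes, against 10.6% for the Th17 list and 4.29% over all protein-coding genes. Smad3, a signal carrier that the receptors phosphorylate, had the strongest, in an intron 17259 bp downstream of its start, with folds of 3.87 and 3.30. The receptor gene Tgfbr2 had 2, at 2.60 and 2.80 and at 2.76 and 2.15. The inhibitor Smad7 had 2, at 2.84 and 2.66 and at 2.02 and 1.88, and the ligand gene Tgfb3 had 2 at 105228 and 114798 bp, at 2.78 and 2.67 and at 2.54 and 2.24. Weaker members were nearest to Smad2, Tgfbr3, Ski, Skil and Ltbp1, with folds from 1.81 to 2.29. Itgb8, whose integrin frees active TGF-β, held 6 of the 18 members and 23 of the 219 regions. Its members were all weak, with folds from 1.75 to 2.08. Itgb8 was also in the integrin list, whose 9 members were 7.5% of 120 regions called in both Th17 libraries. Of 13 integrin genes, 2 others had members, Itga4 with 2 (up to 3.09 and 3.38) and Itgae with 1 (2.48 and 2.34).

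By the count of genes, the remaining lists ranged from 0 of 6 to 3 of 11, against the background of 10.0%. That count does not allow for how many regions a gene has. As a share of regions called in both Th17 libraries, members were 4.29% over all protein-coding genes. This share was 6.67% for IL-6 and STAT3 signalling and 4.05% for chemokine receptor genes. For Th2 and Th9 genes it was 3.57%, for T cell genes 2.78%, for AP-1, BATF and IRF genes 1.08%, and for B cell and myeloid genes 0%. For IL-6 and STAT3 signalling, 3 of 11 genes on these chromosomes had a member, namely Jak1, Pim1 and the inhibitor Socs3. The Pim1 members had folds of 2.71 and 2.35 and of 2.87 and 2.45, while the Socs3 member was uneven at 1.84 and 3.23. Chemokine receptor genes with a member were Ccr6, Ccr7 and Cxcr4, 3 of 13. Of 15 AP-1, BATF and IRF genes only Jun had a member, 180641 bp upstream. Of 20 Th2 and Th9 genes, Il4ra and Epas1 had 1 member and Gata3 had 2. The Gata3 members lay 113888 and 160432 bp downstream of the start with folds of 2.97 and 2.55 and of 2.52 and 2.1. In the marker lists, 1 of 8 T cell genes (Cd28), 2 of 8 CD8 T and NK cell genes (Klrd1 and Prf1), and 0 of 6 B cell and 0 of 6 myeloid genes had a member. Prf1, the gene of the pore-forming protein of cytotoxic cells, had 2, 1426 and 6405 bp downstream of its start, with folds of 3.56 and 2.79 and of 3.12 and 3.82. The 3 members of the CD8 T and NK cell list were 15% of its 20 regions called in both Th17 libraries, a larger share than the 10.6% of the Th17 list.

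Promoter members were few and mostly outside the Th17 list. Protein-coding genes with a member in a promoter window numbered 44 of 20807 (0.211%). Klrd1, which encodes the CD94 chain of NK cell lectin receptors, had the strongest, centred 46 bp before the start with folds of 4.94 and 4.67. The share of other CD8 T and NK cell promoters called is given above, and its part in this peak was not tested. Il17f came next, followed by Cnr2, the cannabinoid receptor of immune cells, with 3.94 and 4.17, Synpo with 3.85 and 3.47, and Aqp9, a water and glycerol channel, with 3.24 and 3.24. Prr29 (3.31 and 3.09), Cd101, an inhibitory surface protein (2.63 and 2.68), Rlbp1 (2.71 and 2.41), Ggta1 (2.47 and 2.40) and Rep15 (2.31 and 2.59) completed the 10 with the highest lower percentile.

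The strongest members of all were not at cytokine genes. Ranked by the lower of the 2 percentiles, the first was nearest to Psmg1, a proteasome assembly chaperone, at chr16:95998953-95999669, with folds of 7.35 and 5.65 and a −log10 q of 66.8 and 53.4. It lay over an exon. Next came an intronic member of Ostm1 (6.48 and 5.38) and one 34989 bp upstream of Ripor2 (6.56 and 5.14). Members nearest to Krt28 (6.38 and 5.06), Mynn (5.51 and 5.05), Oxct1 (5.53 and 5.01) and Ctsc (6.06 and 4.78) followed, then Thap12 (4.84 and 4.76) and Klrd1. Even the first of these stood at percentiles of 94.6 and 91.7, so the top of each Th17 list held no member. Of these 9 members, 5 held at least 1 of the 4 words.

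Several members near a single gene were uncommon, with 122 genes of 20807 (0.586%) nearest to 3 or more. Counts per gene were 1657 genes with 1 member, 303 with 2, 80 with 3, 20 with 4 and 22 with 5 or more. The genes with most members were Adgrl2 (10), which encodes an adhesion receptor, Setbp1 (8) and Pde4d (8), a cyclic AMP phosphodiesterase. Diaph3, Dlg2, Ppp3ca and Rapgef5 had 7 each, among which Ppp3ca encodes the catalytic subunit of calcineurin. At these 7 genes the members were weak, with a mean percentile from 22.2 to 38.9. Adgrl2 had 169 regions of any kind, 92 of them called in both Th17 libraries, so members were 10.9% of the latter, and Pde4d had 279 and 104, or 7.69%. At the other 5 genes that share ran from 12.3% at Rapgef5 to 26.9% at Ppp3ca.

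Tle4 and Trib2 had stronger members. The last of the 12 genes, Atp10a and Slc27a6, were taken from 12 genes with 5 members each for their higher mean percentile, so their strength was fixed by that choice. Tle4, a Groucho-family co-repressor that binds RUNX and TCF factors, had 6 members at a mean percentile of 58.0, which were 42.9% of its 14 regions called in both Th17 libraries. Their folds in replicates 1 and 3 were 2.04 and 2.56, 2.24 and 1.74, 3.76 and 3.80, 1.96 and 2.21, 3.78 and 3.03, and 3.38 and 2.21, and 5 of 6 held at least 1 of the 4 words. Trib2, a pseudokinase, had 6 at a mean percentile of 57.0, and 5 of these held a word. The Trib2 member whose sequence is shown above, 159417 bp downstream of the start, had folds of 3.19 and 3.18, and another, 29519 bp upstream, had 3.26 and 2.64. Atp10a, a phospholipid flippase, had 5 at a mean percentile of 67.5, with folds up to 3.76 and 4.21, and 1 of 5 held a word. Slc27a6, a fatty acid transporter, had 5 at 59.1.

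**Figure D4:**
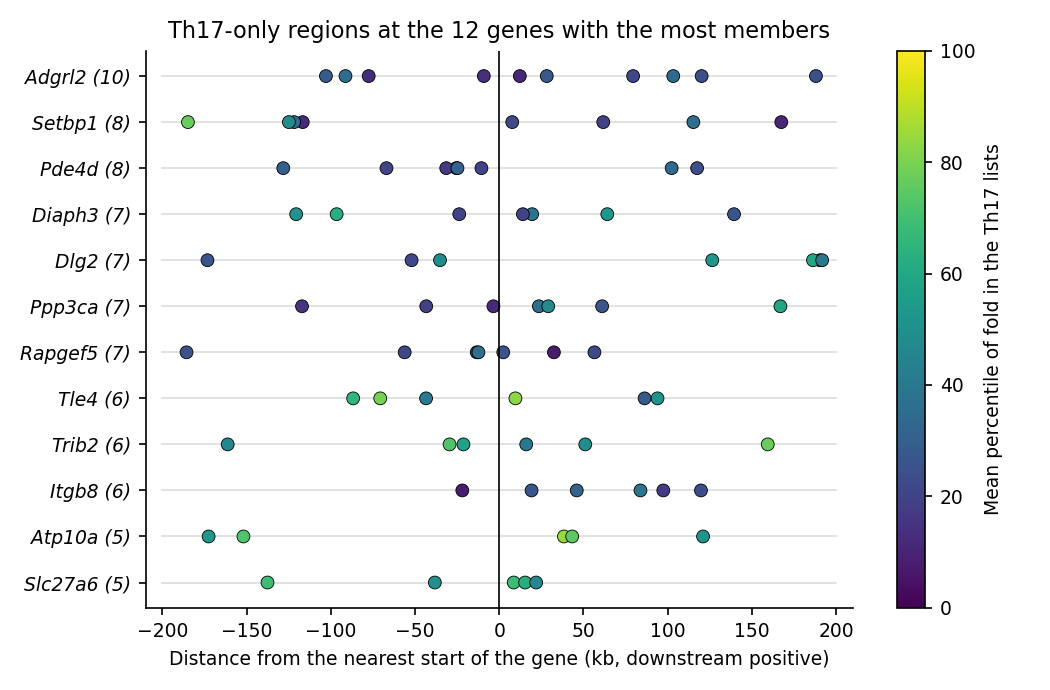
Position of members at the 12 protein-coding genes with the most (y axis, member count in parentheses) by distance from the nearest start of the gene (x axis, kb, downstream positive), coloured by the mean percentile of fold in the Th17 lists. Members spread on both sides of the starts, and those of Tle4, Trib2, Atp10a and Slc27a6 have mean percentiles of 57.0 to 67.5.

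Close clustering was limited. With members joined into clusters at gaps of up to 25 kb, 2889 stood alone, 239 pairs and 35 triplets were formed, and 3 clusters held 4. Within 25 kb of another member lay 17.1% of members, against 21.2% of Th9-only and 28.7% of Th2-only regions, sets of 3051 and 6561. The clusters of 4 lay in introns of Tle1, a co-repressor of the Tle4 family, over 36929 bp, in introns of Bckdhb over 41057 bp, and beside Adgrl2 over 39283 bp. In the Tle1 cluster the folds were 2.75 and 2.28, 2.1 and 1.83, 1.95 and 2.43, and 2.06 and 1.75. In the Adgrl2 cluster none exceeded 1.95. The shortest clusters of 3 spanned 7385 bp in Antxr2, 8642 bp near Setbp1 and 9559 bp in Cntln. Other regions also lay between the members of the large clusters, 9 in all at Tle1. Members were found on all 19 chromosomes, from 3.57% of regions called in both Th17 libraries on chromosome 1 to 6.05% on chromosome 12.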

How the data were processed

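ATAC-seq libraries, 2 each (6 in all) of Th9, Th2 and Th17 cells, were analysed from the peak lists the authors deposited. Per the labels and methods, the authors trimmed reads with Trim Galore 0.4.3, aligned them to mm10 with Bowtie2, removed duplicates with Picard, dropped poorly mapped and mitochondrial reads, and called broad peaks with MACS2 2.1.0 in each library alone, without a control and with a genome-wide background. A Tn5 offset shift was not given in the sources used here. Each deposited list held a display score (not used), a fold enrichment, which is a linear ratio, and −log10 values of p and q. Weak peaks drop out at a different fold in each list, so absence from a list is not absence of signal.

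Peaks were joined and compared in Python 3.11.15 (numpy 2.4.6, pandas 2.3.3), and the joining was checked against bedtools 2.31.1 and on simulated lists. Folds were ranked into percentiles within each list before any restriction to chromosomes 1 to 19, and a region took its best peak. Of all peaks, 0 lay past a chromosome end of GRCm38.p6. Starts, exons and introns came from protein-coding genes of the GENCODE M21 basic set, and classes were assigned in the order promoter window, exon, intron and intergenic, by region centre for the last 3. The 12 genes with most members, 6 clusters, 10 strongest members, 10 strongest promoter members and genes of 12 lists were named, leaving out names of predicted genes. Of 16 words searched and of the 10 strongest members, 1 each is not reported here. Members, lists, words and rules were chosen with earlier results of these data known. No test was made, since calls of all libraries chose the members and regions are not replicates. Read depth is unknown, and no interval that needs it is given. The alternatives tried are given in the closing section, with a value counted as moved when it left the main value's 95% interval (Wilson for shares, binomial order statistics for the median) or, for counts, changed by over 1.5 times.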

Additional observations from a re-analysis of the deposited data

Results flagged for a closer look

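Chromosome X lay outside the selection of regions, and a signal was found there. Of 10403 joined regions on chromosome X, 524 (5.04%) were called in both Th17 libraries and in no other, against 1.55% on chromosomes 1 to 19. The same count was 44 for Th9 (0.423%) and 222 for Th2 (2.13%). Peaks on chromosome X were 4.96% and 5.36% of the Th17 lists and 2.81% to 3.60% of the Th9 and Th2 lists. Peaks on chromosome Y numbered 106 and 57 in Th9 replicates 1 and 3, 99 and 60 in Th2, and 78 and 87 in Th17. Mice of both sexes were used, but the sex behind each library was not given in the sources used here. The part of sex in the chromosome X counts was not tested.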

How the results depend on the processing

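The count of Th17-only regions depended on how peaks were called. It was 457 with a fold of at least 4 in every list, 1566 with a fold of at least 2.2 in every list (an alternative chosen after seeing the data) and 22199 with a call in either Th17 library. It stayed within 1.5 times of 3484 with a −log10 q of at least 5, with lists of equal length and with peaks covering 50% of a region. With each library left out in turn it ran from 3958 to 16864, the highest without Th17 replicate 3, and was 9333 without Th17 replicate 1.

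In the order −log10 q of at least 5, fold of at least 4, either Th17 library, fold of at least 2.2, the promoter share became 1.72%, 3.06%, 0.775% and 1.72%, the intron share 51.2%, 50.8%, 34.7% and 52.3%, the median distance to a start 35626, 31786, 102532 and 32942 bp, the share within 25 kb of another member 19.2%, 4.81%, 51.9% and 12.3%, and the share with the AP-1 word 17.4%, 18.8%, 11.9% and 19.1%. With lists of equal length the intron share was 42.1%, the distance 57703 bp and the share within 25 kb 19.4%, and with peaks covering 50% of a region the promoter share was 1.77% and the share within 25 kb 23.3%. Promoter windows of 2000 bp on either side gave 2.53%. All annotated genes in place of protein-coding genes gave 3.50% in promoter windows, 48.6% in introns and a median distance of 20053 bp. Neighbours within 10 kb were found for 8.01%, and the AP-1 word in the central 500 bp of 21.2%.

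With each library left out in turn, the promoter share ran from 0.765% to 1.39%, the intron share from 36.1% to 44.5%, the distance from 48869.5 to 103752 bp, the share within 25 kb from 18.2% to 44.9% and the AP-1 share from 10.3% to 15.1%. The cause of these shifts was not tested. Over the 12 genes with most members and 12 alternatives, 78 of 144 counts stayed within 1.5 times, 35 were lower and 31 higher. With a fold of at least 2.2 in every list Adgrl2 had 1 member, Pde4d, Dlg2 and Rapgef5 had 0, Tle4 and Atp10a 5 each.

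No paired analysis was possible because no result comes from a test. Weak peaks limit these values: a region below a list's floor, up to 2.11 in Th9 replicate 1, counts as closed.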
